A study of Mus musculus with 12 samples.

Results

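The members of the NF-kB family and its feedback circuit were followed in regulatory T cells (Treg) and conventional T cells (Tconv) of 2 mouse strains. The genes were the subunits Nfkb1, Nfkb2, Rel, Rela and Relb, the IkB proteins Nfkbia, Nfkbid and Nfkbie, and the regulators Tnfaip3 and Birc3. Every probe set whose platform annotation names exactly 1 gene, and that gene a member, was taken. This gave 17 probe sets for 9 of the 10 genes, of 45037 probe sets tested and 18193 genes named. Nfkb1 was not analysed here, since no probe set names it alone in the annotation used.

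NF-kB transcription factors are dimers of Rel family proteins. In resting cells IkB proteins hold them in the cytoplasm, and signals from antigen receptors, TNF receptors and innate receptors activate the IKK kinases, which mark IkB proteins for destruction. The freed dimers enter the nucleus and switch on target genes that include their own inhibitors, such as Nfkbia (IkB alpha) and Tnfaip3 (A20), so the response limits itself. In mice, c-Rel, the product of Rel, is needed for normal numbers of Treg, the CD4+ T cells that express Foxp3 and restrain immune responses.

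The cells came from the spleens of mice aged 6 weeks. NOD mice develop autoimmune diabetes, and B6.H2g7 mice (B6g7 below) are B6 mice that carry the MHC class II type of NOD, Ag7, so all 4 groups share it. Treg were CD4+ CD25hi and Tconv CD4+ CD25- cells, sorted in 2 passes after a magnetic step as CD8a-, CD11b-, CD69- and B220-. Each of the 4 groups held 3 Affymetrix arrays, and each array took RNA pooled from 3 mice, amplified in 2 rounds, so the spread between arrays is that between pools. The Treg gate is defined by CD25 and not by Foxp3: restaining found Foxp3 in 94%, 96% and 96% of B6g7 Treg and in 89%, 95% and 95% of NOD Treg, as the labels record. The series text asks whether the Treg change relative to Tconv is alike in NOD and B6g7. All levels below are log2 of the deposited intensity, and a change is a difference of group means on that scale, with its standard error (SE).

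The labels were borne out by their defining genes on every array: Foxp3 lay between 5.57 and 6.24 in Tconv and between 10.67 and 11.26 in Treg, and Il2ra, which encodes CD25, between 5.50 and 5.83 against 10.69 and 11.10. Arrays of 1 group correlated with r between 0.983 and 0.9962, and array medians ran from an intensity of 83.9 to 88.6. Among lists of markers of other cells, 1 of 7 B cell genes (Cd79b) and 1 of 4 plasma cell genes (Xbp1) were called higher in Treg. None of 7 monocyte and macrophage, 6 dendritic cell, 4 neutrophil, 3 NK, 2 CD8 T cell and 2 erythroid genes was called in that comparison by limma. Of the dendritic and NK lists, 1 gene each had an unadjusted p under 0.05, and of the other lists just named, 0. The summed dendritic cell markers spanned 9.32 to 9.47 in B6g7 Tconv, 9.40 to 9.49 in B6g7 Treg, 9.41 to 9.46 in Tconv of NOD and 9.34 to 9.45 in Treg of NOD. The 7 B cell genes summed to 9.41 to 9.69 in B6g7 Tconv and 9.44 to 9.72 in B6g7 Treg, and to 9.53 to 9.74 and 9.56 to 9.69 in NOD. The plasma cell list, with Xbp1, summed to 10.01 to 10.27 in B6g7 Tconv, 10.54 to 10.77 in B6g7 Treg, 9.99 to 10.12 in Tconv of NOD and 10.73 to 10.90 in Treg of NOD, a rise that rested on Xbp1 (0.83 in B6g7, 1.15 in NOD): the averaged adjusted p was 0.979 for Jchain, 0.644 for Sdc1 and 0.542 for Prdm1. Of 4 T cell genes, 1 was called lower in Treg, Cd4 (-0.50 in B6g7, -0.29 in NOD, averaged adjusted p = 0.0262), and 3 had an unadjusted p under 0.05. Their sum was 13.46 to 13.51 in Tconv and 13.10 to 13.27 in Treg of B6g7, and 13.48 to 13.54 and 13.25 to 13.35 in NOD. The part of these genes in the results below was not tested.

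In Treg, 6 of the 9 measured genes were higher than in Tconv averaged over both strains by their brightest probe set, and 0 were lower. They were the subunits Rel and Relb, the inhibitors Nfkbia, Nfkbie and Tnfaip3, and Birc3. Over all probe sets, 11 of 17 were called higher (limma, Benjamini-Hochberg adjusted p under 0.05), where 3.45% of all tested probe sets were called higher and 2.40% lower. By the brightest probe set of each gene, 4.46% of all named genes were called higher. All Treg arrays lay above all Tconv arrays for 7 of 17 probe sets (Rel, 4 of Nfkbia and both of Birc3), where 2.22% of all probe sets did so. The 11 include 5 probe sets of Nfkbia and 2 of Birc3, which are not independent. The members were chosen with earlier results of these data known, so the shares beside their counts are not a test of the family. The median change over the 17 was 0.47, against -0.01 over all probe sets. Nfkb2, Rela and Nfkbid did not pass the test. In bulk samples, a change in the RNA per cell and a change in the share of cells that express a gene cannot be told apart.

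**Figure D1:**
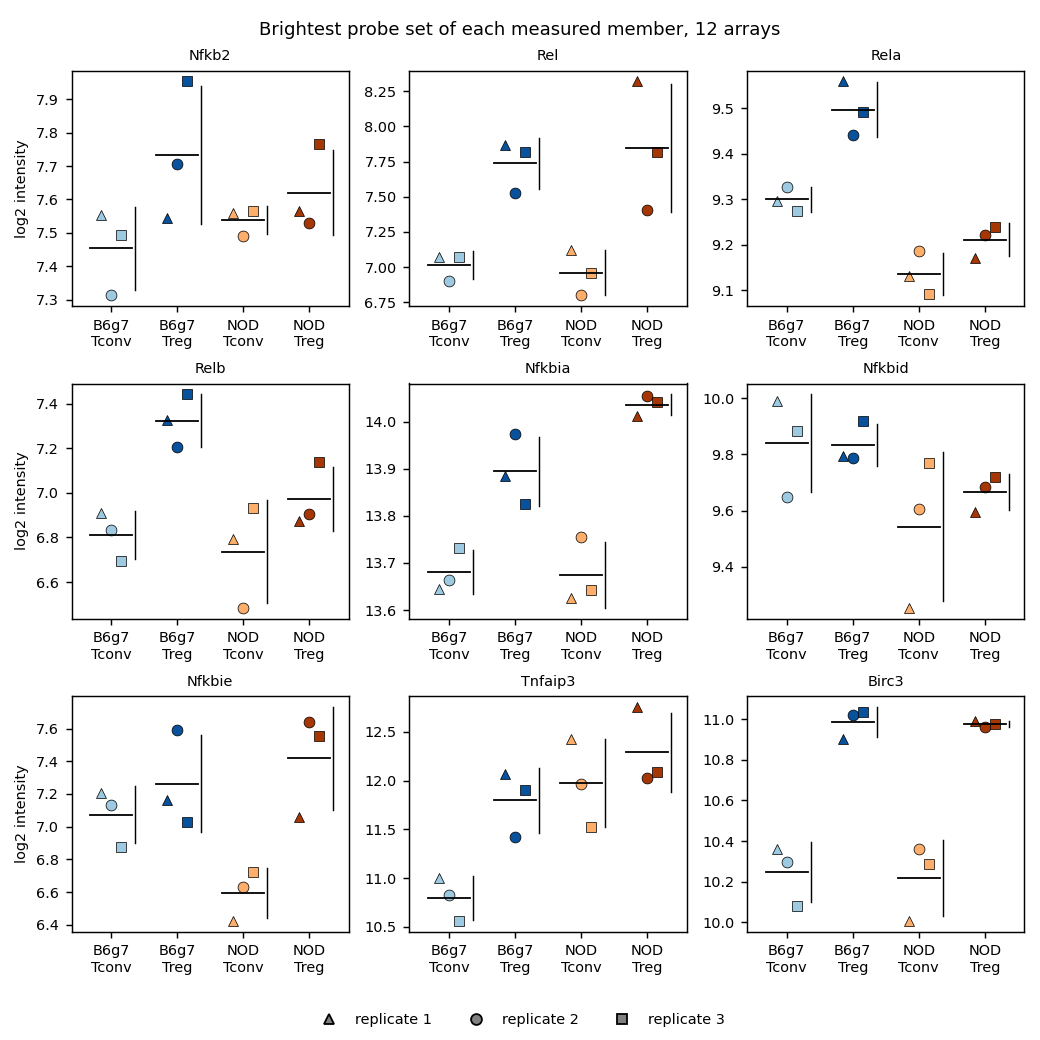
Log2 intensity of the brightest probe set of each measured member on the 12 arrays, by group (B6g7 Tconv, B6g7 Treg, NOD Tconv, NOD Treg), each panel on its own axis that does not start at 0; symbols mark the replicate number, horizontal lines the mean of 3 arrays and vertical lines 1 SD to each side. For Rel, Nfkbia and Birc3 every Treg array lies above every Tconv array, while for Tnfaip3 the NOD Tconv arrays lie in the range of Treg.

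The promoters of several members carry matches to the kappa B consensus, the pattern of sites that NF-kB binds. In the RefSeq promoter table (GRCm38.p6, 250 bases before to 50 bases after each start site), 8 of the 10 genes had an entry, in 13 windows. The kappa B consensus, searched on both strands, was found in 8 of these 13 windows and in 6 of the 8 genes (Nfkb2, Rel, Nfkbia, Nfkbid, Nfkbie and Tnfaip3). It was found in 4.51% of all 32851 windows and 5.14% of 27025 genes. A related spelling, GGG and TTCC with any 3 bases between them, which overlaps the consensus, was found in 9 of the 13 windows and again in 6 genes, against 5.56% of all windows and 6.31% of genes. These are matches of letters, with no measurement of binding. The windows of Birc3 and Rela held neither pattern. Windows 2 and 3 of Nfkb2 overlap and share a match, so the windows are not independent. The members were chosen as NF-kB subunits and feedback genes, so the shares beside their counts are not a test. The 150 bases before the start site are printed 5' to 3' on the gene's strand for 4 genes that were higher in Treg and for Nfkb2, which was not called, with matches to the consensus on either strand in capitals.
Rel promoter, chr11:23770970-23771119, minus strand: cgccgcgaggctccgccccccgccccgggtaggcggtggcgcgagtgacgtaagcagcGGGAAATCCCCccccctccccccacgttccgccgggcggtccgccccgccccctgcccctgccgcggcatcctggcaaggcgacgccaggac
Nfkb2 promoter, chr19:46304587-46304736, plus strand: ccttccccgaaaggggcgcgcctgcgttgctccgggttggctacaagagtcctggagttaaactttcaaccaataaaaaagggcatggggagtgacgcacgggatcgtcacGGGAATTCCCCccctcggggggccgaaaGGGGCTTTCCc
Nfkbia promoter, chr12:55492648-55492797, minus strand: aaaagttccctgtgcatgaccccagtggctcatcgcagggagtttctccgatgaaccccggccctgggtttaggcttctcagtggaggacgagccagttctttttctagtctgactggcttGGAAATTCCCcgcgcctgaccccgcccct
Nfkbie promoter, chr17:45555550-45555699, plus strand: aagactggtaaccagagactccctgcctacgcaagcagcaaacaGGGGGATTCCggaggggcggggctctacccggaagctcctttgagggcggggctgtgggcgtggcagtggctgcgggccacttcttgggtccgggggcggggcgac
Tnfaip3 promoter, chr10:19015411-19015560, minus strand: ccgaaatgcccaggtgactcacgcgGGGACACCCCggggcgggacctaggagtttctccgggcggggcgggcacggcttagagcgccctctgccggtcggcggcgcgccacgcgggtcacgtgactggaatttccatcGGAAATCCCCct
Nfkbia has a match that begins 29 bases before the start site. Tnfaip3 has 2 matches, which begin 12 and 125 bases before it. In Nfkb2 the matches nearest the start begin 11 and 38 bases before it, the latter overlapping another by all but 1 base, and in Rel overlapping matches begin 91 and 92 bases before it. Nfkb2 has matches and was called with array weights alone, Nfkbid has matches in 1 of its 3 windows and was not called, and Birc3 has none in its window and was called in both strains.

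Rel encodes c-Rel, a subunit that can activate transcription and is largely restricted to blood cells. Its level was 7.07, 6.90 and 7.08 in B6g7 Tconv and 7.86, 7.53 and 7.82 in B6g7 Treg. In NOD it was 7.12, 6.80 and 6.96 in Tconv and 8.32, 7.41 and 7.81 in Treg. All 6 Treg arrays lay above all 6 Tconv arrays, and the NOD Treg arrays were the most spread. Averaged over strains Rel was 1.75-fold higher in Treg, a change of 0.80 (SE 0.13, adjusted p = 0.00188). In NOD the change was 0.89 (SE 0.19, adjusted p = 0.0189, and 0.0758 with the NOD arrays alone in the fit). In B6g7 it was 0.72 (SE 0.19), which missed the threshold with the adjusted p = 0.0605, although the arrays did not overlap. The NOD call ended without NOD Tconv replicate 2 or 3 or NOD Treg replicate 3 (adjusted p up to 0.0951), and the averaged call held in all 12 fits that each left out 1 array.

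Relb encodes RelB, the subunit that pairs with p52 in the noncanonical pathway. It stood at 6.91, 6.83 and 6.69 in B6g7 Tconv and at 7.32, 7.20 and 7.44 in B6g7 Treg, where the groups did not overlap. In NOD it stood at 6.79, 6.48 and 6.93 in Tconv and at 6.87, 6.91 and 7.14 in Treg, where they did. The change was 0.51 in B6g7 (SE 0.13, adjusted p = 0.0435) and 0.24 in NOD (SE 0.13, adjusted p = 0.582). Both strains together gave 0.37 (SE 0.09, adjusted p = 0.0232). That call ended in 5 of the 12 fits that each left out 1 array (B6g7 Tconv replicate 2 or 3, B6g7 Treg replicate 3, NOD Tconv replicate 2, NOD Treg replicate 3), with an adjusted p of up to 0.0666. The call in B6g7 ended in 9 of them, all but those without NOD Tconv replicate 2 or 3 or NOD Treg replicate 3, with an adjusted p of up to 0.171.

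Rela, which encodes p65, an activating subunit found in most cell types, did not pass the test. Its level was 9.30, 9.33 and 9.27 in B6g7 Tconv, 9.56, 9.44 and 9.49 in B6g7 Treg, 9.13, 9.19 and 9.09 in NOD Tconv, and 9.17, 9.22 and 9.24 in NOD Treg. The B6g7 groups did not overlap, the NOD groups did, and every NOD array lay below every B6g7 array of the same population. The averaged Treg change was 0.14 (SE 0.05, adjusted p = 0.226), with an interval of 0.02 to 0.25 (95%, from the fit).

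Nfkb2 encodes p100, which restrains RelB until it is processed to p52. Its brightest probe set stood at 7.55, 7.31 and 7.49 in B6g7 Tconv, 7.54, 7.71 and 7.95 in B6g7 Treg, 7.56, 7.49 and 7.57 in NOD Tconv, and 7.57, 7.53 and 7.77 in NOD Treg. The groups overlapped in both strains. The averaged change was 0.18 (SE 0.08, adjusted p = 0.327), and the other probe set gave 0.20 (SE 0.08, adjusted p = 0.187). Neither was called, and the interval of the former reached 0.36. With array weights both passed (adjusted p = 0.0468 and 0.0433), as did the brightest in B6g7 (0.0415).

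Nfkbia encodes IkB alpha, the inhibitor that NF-kB induces most directly, and 5 probe sets measured it. In the averaged comparison all 5 were called higher, with changes of 0.29, 0.63, 0.63, 0.95 and 0.47 from the brightest to the dimmest and adjusted p-values of 0.00644, 2.94e-04, 0.00401, 8.24e-05 and 0.00557. The largest of these was at probe set 1448306_at. It read 9.37, 9.04 and 9.29 in B6g7 Tconv and 10.02, 10.12 and 10.63 in B6g7 Treg. It read 9.48, 9.42 and 9.70 in NOD Tconv and 10.34, 10.39 and 10.48 in NOD Treg. The groups were apart in both strains, with changes of 1.02 in B6g7 (SE 0.15, adjusted p = 0.00136) and 0.87 in NOD (SE 0.15, adjusted p = 0.00498).

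The smallest change was at the brightest probe set of Nfkbia, 1420088_at. Its arrays read 13.65, 13.66 and 13.73 in B6g7 Tconv, 13.88, 13.97 and 13.83 in B6g7 Treg, 13.63, 13.76 and 13.64 in NOD Tconv, and 14.01, 14.05 and 14.04 in NOD Treg. All Treg arrays lay above all Tconv arrays. The highest value of any probe set on an array was 14.64 to 14.73, close to these levels; whether the top of the scale narrowed the difference was not tested. In NOD all 5 probe sets were called, and in B6g7 2 of the 5 were (1449731_s_at and 1448306_at). The other 3 changed by 0.21, 0.45 and 0.36 there, with adjusted p-values of 0.255, 0.234 and 0.222. All averaged calls of Nfkbia held in the 12 fits that each left out 1 array. In NOD probe set 1448306_at held in all 12, while the others ended in 2 to 6 of them, each without a NOD array, with an adjusted p of up to 0.119. A probe set name ending in _s_at means that its probes can take signal from more than 1 transcript.

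**Figure D2:**
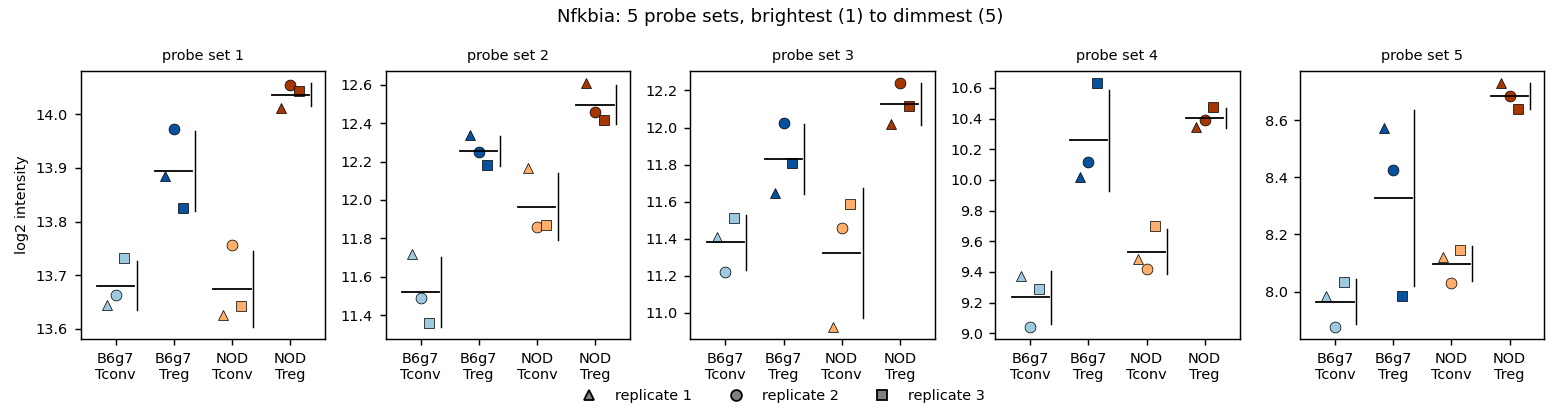
Log2 intensity of the 5 Nfkbia probe sets on the 12 arrays, from the brightest (1) to the dimmest (5), each on its own axis that does not start at 0; symbols mark the replicate number, horizontal lines the mean of 3 arrays and vertical lines 1 SD to each side. In probe sets 1 to 4 every Treg array lies above every Tconv array, while in probe set 5 replicate 3 of B6g7 Treg, at 7.98, lies among the Tconv arrays.

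Nfkbie encodes IkB epsilon, a further inhibitor that binds c-Rel and p65 dimers. Its brightest probe set stood at 7.21, 7.13 and 6.87 in B6g7 Tconv and 7.17, 7.59 and 7.03 in B6g7 Treg, which overlapped. It stood at 6.42, 6.63 and 6.72 in NOD Tconv and 7.06, 7.64 and 7.55 in NOD Treg, which did not. The change was 0.83 in NOD (SE 0.18, adjusted p = 0.0203), 0.19 in B6g7 (SE 0.18, adjusted p = 0.797) and 0.51 averaged (SE 0.12, adjusted p = 0.0286). The other probe set, 1431843_a_at, gave 0.26 in NOD (adjusted p = 0.503) and 0.19 averaged (adjusted p = 0.359), so the calls rest on 1 of the 2 probe sets. The averaged call ended in 7 of the 12 fits that left out 1 array, all but those without B6g7 Tconv replicate 1, B6g7 Treg replicate 1 or 3, NOD Tconv replicate 3 or NOD Treg replicate 1, with an adjusted p of up to 0.0813, and the NOD call in 4 (NOD Tconv replicate 1 or 2, NOD Treg replicate 2 or 3), with one of up to 0.106.

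Nfkbid encodes IkB NS, an atypical, nuclear IkB protein that in mice promotes Foxp3 expression in developing Treg. Its arrays read 9.99, 9.65 and 9.88 in B6g7 Tconv, 9.79, 9.79 and 9.92 in B6g7 Treg, 9.25, 9.61 and 9.77 in NOD Tconv, and 9.59, 9.68 and 9.72 in NOD Treg. Treg and Tconv overlapped in both strains. The averaged change was 0.06 (SE 0.09, adjusted p = 0.895), with an interval of -0.14 to 0.26.

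Tnfaip3 encodes A20, a ubiquitin-editing enzyme that shuts off signalling to IKK. Its brightest probe set, 1433699_at, read 11.005, 10.83 and 10.56 in B6g7 Tconv and 12.07, 11.42 and 11.91 in B6g7 Treg. It read 12.42, 11.97 and 11.53 in NOD Tconv and 12.76, 12.03 and 12.09 in NOD Treg. B6g7 Tconv was the low group: its highest array lay below every array of the other 3 groups, while NOD Tconv and NOD Treg overlapped. In B6g7 the Treg change was 1.001 (SE 0.25, adjusted p = 0.0482). In NOD it was 0.32 (SE 0.25, adjusted p = 0.806), with an interval of -0.22 to 0.86. The averaged change was 0.66 (SE 0.18, adjusted p = 0.0466).

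The Tnfaip3 calls lay near the threshold. With 1 array left out, the averaged call ended in 9 of 12 fits (adjusted p up to 0.112) and the B6g7 call in 8 (up to 0.175), while the changes stayed between 0.54 and 0.77 and between 0.87 and 1.19. Both calls held without B6g7 Treg replicate 2 or NOD Tconv replicate 1; the averaged one also held without NOD Treg replicate 2, and the B6g7 one without NOD Tconv replicate 3 or NOD Treg replicate 1. Replicate 1 was the highest array for Tnfaip3 in each of the 4 groups. The difference between the 3' and 5' actin control probe sets, a measure of RNA integrity and amplification, was lowest in replicate 1 in Treg of B6g7 (2.66) and in both NOD groups (2.97 in Tconv, 3.29 in Treg). In B6g7 Tconv it was 3.85 in replicate 1, against 3.67 and 4.43. With that difference as a covariate the B6g7 change was 0.94 (adjusted p = 0.00117), and without the 4 arrays numbered replicate 1 it was 0.97 (adjusted p = 0.0198). The other probe set, 1450829_at, read between 5.19 and 5.67, near 5.28, the 25th percentile of all probe set means, and changed by -0.16 on average (SE 0.07, adjusted p = 0.305).

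Birc3 encodes cIAP2, a ubiquitin ligase of the TNF receptor complex and a target gene of NF-kB. Its brightest probe set read 10.36, 10.30 and 10.08 in B6g7 Tconv and 10.90, 11.02 and 11.04 in B6g7 Treg. It read 10.01, 10.36 and 10.29 in NOD Tconv and 10.99, 10.96 and 10.98 in NOD Treg. The Treg arrays of both strains lay close together and above all Tconv arrays. The change was 0.74 in B6g7 (SE 0.11, adjusted p = 0.00127) and 0.76 in NOD (SE 0.11, adjusted p = 0.00116). Both together gave 0.75, or 1.68-fold (SE 0.08, adjusted p = 3.45e-05). The other probe set was also called, at 0.57 averaged (SE 0.08, adjusted p = 5.42e-04). The brightest was called in all 12 fits that left out 1 array, in each of these 3 comparisons.

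Taken strain by strain, 6 of 17 probe sets were called higher in B6g7 Treg and 9 of 17 in NOD Treg, and 0 were called lower in either. Of all tested probe sets, 2.04% passed as higher and 1.34% as lower in B6g7, and 2.09% and 1.11% in NOD. By brightest probe set the called genes were Relb, Tnfaip3 and Birc3 in B6g7 and Rel, Nfkbia, Nfkbie and Birc3 in NOD, 3 and 4 of 9, where 2.84% and 2.86% of all named genes were called higher. The arrays of the 2 populations did not overlap, with Treg higher, for 11 of 17 probe sets in B6g7, where 8.50% of all probe sets did so, and for 9 in NOD, where 7.62% did. In NOD 1 probe set, the dim one of Tnfaip3, did not overlap with Treg lower, where 9.36% of all probe sets did so. The NOD count was 2 to 5 when any 1 of the 6 NOD arrays was left out, lowest without NOD Treg replicate 3, and 9 without any 1 of the B6g7 arrays.

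**Figure D3:**
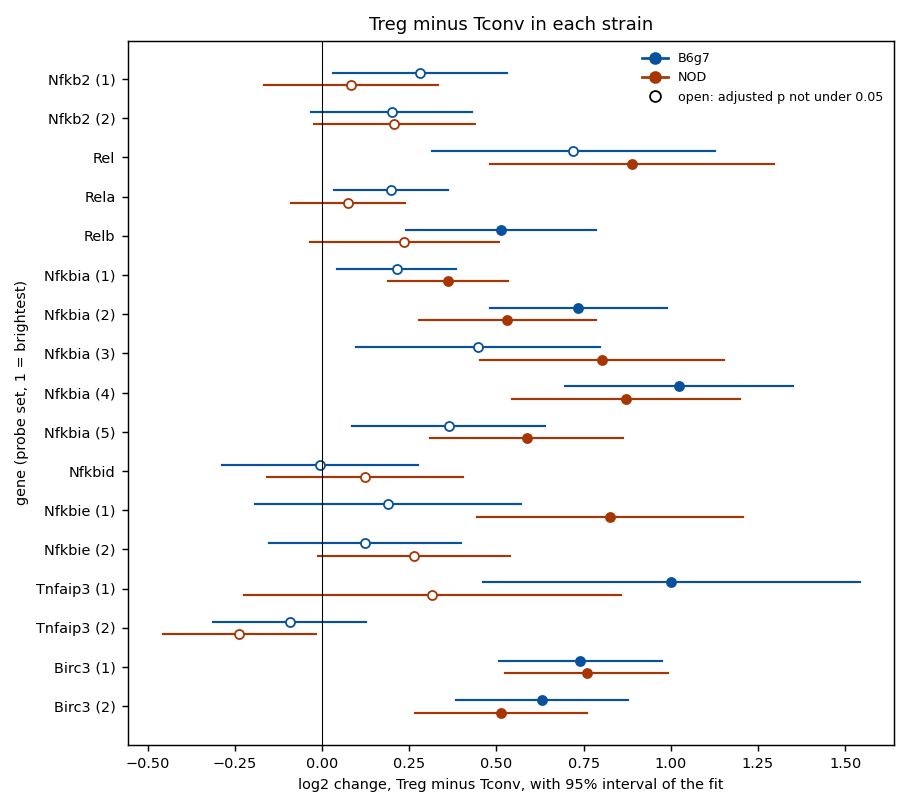
Log2 change from Tconv to Treg in B6g7 (blue) and NOD (brown) for the 17 member probe sets, with the 95% interval of the fit; filled points were called at an adjusted p under 0.05. The intervals of the strains overlap for every probe set, with the points furthest apart for Tnfaip3 (1) and Nfkbie (1).

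Whether the change itself differed between strains was tested directly, as the NOD change minus the B6g7 change. In that comparison 0 of 17 probe sets were called by limma, where 0.0933% of all tested probe sets were, and 1 of the 17 had an unadjusted p under 0.05. That was Nfkbie, with a difference of 0.64 (interval 0.10 to 1.18, unadjusted p = 0.0245, adjusted p = 0.962). For Tnfaip3 the difference was -0.68 (interval -1.45 to 0.08, adjusted p = 0.962). For Relb it was -0.28 (interval -0.66 to 0.11) and for Rel 0.17 (interval -0.41 to 0.74). Birc3 had a difference of 0.02 and an interval of -0.31 to 0.35. A call in one strain and not in the other, as for Relb, Rel, Nfkbie and Tnfaip3, is thus not shown to be a difference between strains.

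Between strains within Tconv, Tnfaip3 was the member that passed the test. It was 2.26-fold higher in NOD than in B6g7, a difference of 1.18 (SE 0.25, adjusted p = 0.0204), and the array values given above did not overlap. It was 1 of 17 probe sets called, where 2.96% of all tested probe sets were called in either direction and 1.31% higher. The other Tnfaip3 probe set differed by 0.04 (SE 0.10, adjusted p = 0.955). The call ended when B6g7 Tconv replicate 2 or 3 or NOD Tconv replicate 1 or 2 was left out (adjusted p up to 0.0941), with the difference between 0.95 and 1.40 over the 12 fits. It was 1.06 both with the actin covariate (adjusted p = 5.06e-04) and without the 4 arrays numbered replicate 1 (adjusted p = 0.0116).

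Among the other members in Tconv, Nfkbia probe set 1449731_s_at read 11.72, 11.49 and 11.36 in B6g7 and 12.17, 11.86 and 11.87 in NOD, with no overlap. The difference was 0.44 (SE 0.12, adjusted p = 0.0729), while the brightest Nfkbia probe set differed by -0.01 (SE 0.08). Nfkbie pointed the other way, with NOD lower and no overlap (-0.48, SE 0.18, adjusted p = 0.277). Over the 17, the strains did not overlap for 3 probe sets with NOD higher and for 2 with NOD lower. The share of all probe sets that did so is not given here. The median difference over the 17 was -0.01, against 0.02 over all probe sets. Of the Treg markers, Ikzf2 was called higher in NOD Tconv by 0.76 (adjusted p = 0.0492). Foxp3 differed by 0.23 (adjusted p = 0.796), Il2ra by 0.06 (0.912) and Ctla4 by 0.36 (0.884). The 4 Treg markers summed to 9.13 to 9.63 in B6g7 Tconv and 9.79 to 10.18 in NOD Tconv. Ikzf2 was the brightest of them on every Tconv array and so weighed most in the sum. Their part in the Tnfaip3 difference was not tested.

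Within Treg, 0 of 17 member probe sets differed between strains by limma, where 3.26% of all tested probe sets were called, and 3 had an unadjusted p under 0.05. These were Rela, Relb and a probe set of Nfkbia. Rela was lower in every NOD array (-0.29, SE 0.08, adjusted p = 0.0663). Relb was also lower in every NOD array (-0.35, SE 0.13, adjusted p = 0.243). Nfkbia probe set 1420089_at was 0.36 higher in NOD with no overlap (SE 0.13, adjusted p = 0.250). Tnfaip3 was 0.49 higher in NOD (SE 0.25, interval -0.05 to 1.03, adjusted p = 0.557). Over the 17, the strains did not overlap for 3 probe sets with NOD higher and for 3 with NOD lower. The share of all probe sets that did so, or that had an unadjusted p under 0.05, is not given here. These counts are therefore not read as a result.

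**Figure D4:**
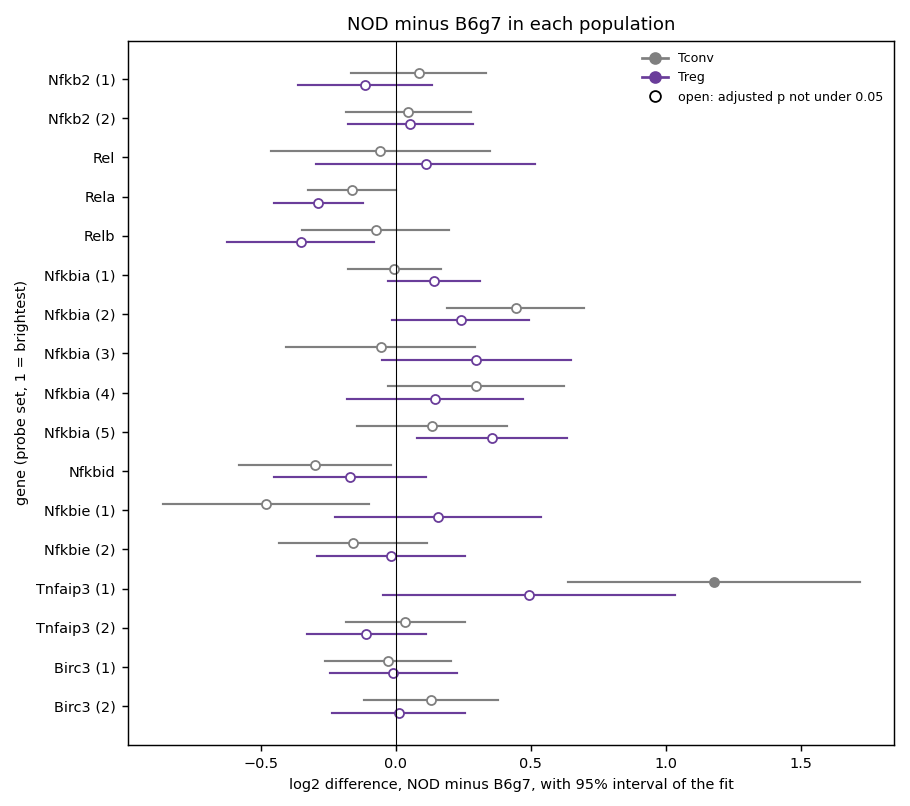
Log2 difference between NOD and B6g7 in Tconv (grey) and in Treg (purple) for the 17 member probe sets, with the 95% interval of the fit; filled points were called at an adjusted p under 0.05. The single filled point is the brightest Tnfaip3 probe set in Tconv, at 1.18.

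The wider pathway was read from 7 lists of genes, of which 66 of 72 were measured, each by its brightest probe set. Averaged over strains, 16 were called higher in Treg and 2 lower, where 4.46% and 3.03% of all named genes were. The lists were chosen with earlier results of these data known, so shares of all genes given beside their counts are not a test of the lists. No test compared the lists with each other. Of 9 measured IKK and upstream kinases, 0 were called by limma and 2 had an unadjusted p under 0.05, and the list's median change was 0.003. Ikbkb, which encodes IKK beta, changed by -0.32 (adjusted p = 0.103). Of the 3 genes of the linear ubiquitin ligase, which builds the chains that recruit IKK, 0 were called and 0 had an unadjusted p under 0.05.

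Of 11 TNF receptor genes, 5 were higher and 0 lower in Treg, with a median change of 0.28 against -0.01 over all genes. Tnfrsf4 (OX40) was higher by 2.68 (SE 0.10, adjusted p = 4.89e-09), or 6.41-fold. Tnfrsf18 (GITR) was higher by 1.32 (SE 0.08), Tnfrsf9 (4-1BB) by 1.32 (SE 0.14) and Tnfrsf1b (TNF receptor type II) by 1.24 (SE 0.10). These costimulatory receptors signal through TRAF adaptors. The Tnfrsf1b change is that of its brightest probe set. The other Tnfrsf1b probe set changed by 0.05 averaged (adjusted p = 0.872) and was not called, there or in either strain. Among 7 TRAF and IAP adaptors 1 was higher, Traf1, itself a target gene of NF-kB, by 1.19 (SE 0.14, adjusted p = 1.19e-04). Of 5 measured genes of the T cell receptor arm 1 was lower and 0 higher: Malt1, a paracaspase of T cell receptor signalling, with a change of -0.59 (SE 0.10, adjusted p = 0.00248). Malt1 was called in NOD (-0.69, adjusted p = 0.0178) and not in B6g7 (-0.50, adjusted p = 0.0980). The NOD call ended in 4 of the 12 fits that left out 1 array (adjusted p up to 0.0931). Its other probe sets changed by -0.55 and -0.45 averaged (adjusted p = 0.403 and 0.555) and were not called.

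Of 13 other IkB proteins and inhibitors, 3 were higher and 0 lower. Bcl3, an atypical IkB protein that binds p50 and p52 dimers in the nucleus, was higher by 1.13 (SE 0.18, adjusted p = 0.0012). Nfkbiz, which encodes the nuclear IkB zeta, was higher by 1.04 (SE 0.14, adjusted p = 3.93e-04) at its brightest probe set. Its next brightest changed by 0.38 averaged (adjusted p = 0.138) and was not called. Its dimmest was called averaged, with a change of 0.38 (adjusted p = 0.0279). Neither of these was called in B6g7 or in NOD, so the Nfkbiz calls within strains rest on the brightest. Tnip1, an A20-binding protein, was higher by 0.67 (SE 0.11, adjusted p = 0.00221). By their brightest probe sets all 3 genes were called in each strain with every array. With 1 array left out, the Tnip1 call ended in 9 of 12 fits in each strain (adjusted p up to 0.175), that of Bcl3 in 4 in B6g7 and 7 in NOD (up to 0.167) and that of Nfkbiz in 5 in NOD (up to 0.134). Of 18 target genes, 7 were higher and 1 lower, with a median of 0.31. Cd83 was higher by 2.09 (SE 0.12), the kinase gene Pim1 by 1.34 (SE 0.06), the cytokine gene Lta by 1.22 (SE 0.08) and the adhesion gene Icam1 by 1.001 (SE 0.07). The Pim1 change is that of its brightest probe set. Its other probe set changed by 0.14 averaged (adjusted p = 0.538) and was not called, there or in either strain. Ccr7, the receptor for homing to lymph nodes, was lower, with a change of -0.90 (SE 0.09, adjusted p = 4.04e-05).

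**Figure D5:**
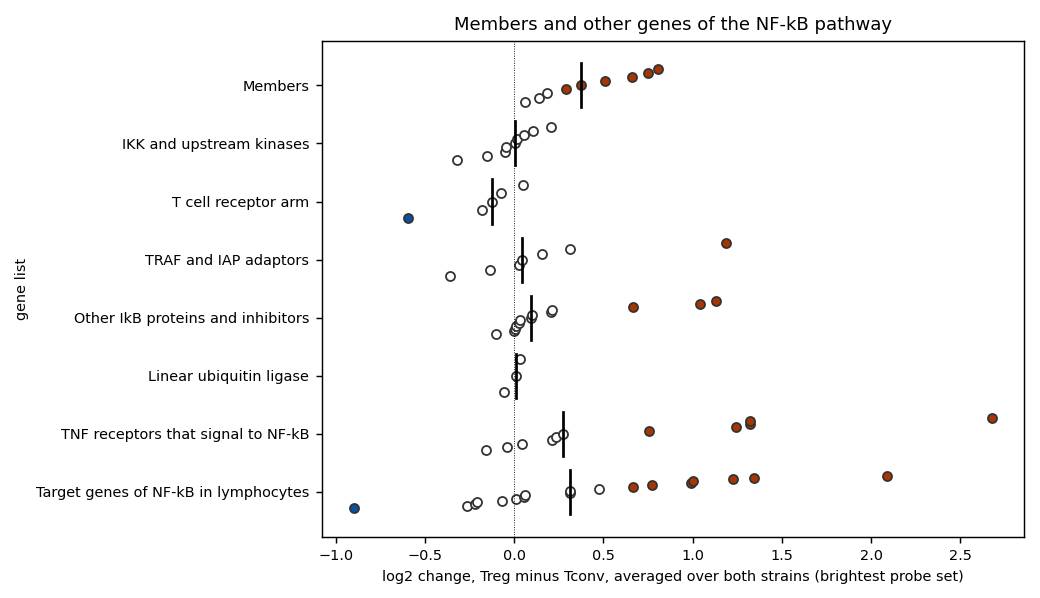
Log2 change from Tconv to Treg averaged over both strains, for the members and the 7 wider lists, 1 point per gene by its brightest probe set, with brown points called higher, blue points called lower, open points not called, and the vertical bar at each list's median. The called genes lie among the members, the TNF receptors, the targets, the other inhibitors and Traf1, with Malt1 and Ccr7 lower, while the kinase and ubiquitin ligase lists hold 0 calls.

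Between strains, 6 of these 66 genes were higher and 2 lower in NOD Tconv, and 2 were higher and 2 lower in NOD Treg. Of all named genes, 1.60% were called higher and 1.45% lower in Tconv, and 1.84% and 1.49% in Treg. Cd69, an early activation gene whose protein the sort selected against, was higher in NOD Tconv by 1.28 (SE 0.15, adjusted p = 2.89e-04) and in NOD Treg by 0.75 (SE 0.15, adjusted p = 0.0153). Tnfrsf1b was higher in NOD in both at its brightest probe set, by 0.63 in Tconv and 0.83 in Treg. That Tconv call ended in 5 of 12 fits that left out 1 array (adjusted p up to 0.152). The other Tnfrsf1b probe set differed by 0.14 in Tconv (adjusted p = 0.738) and by 0.05 in Treg (adjusted p = 0.970). It was not called in either population. Icam1 was higher in NOD Tconv by 0.62 (adjusted p = 0.00392) in all 12 fits. Tnfrsf18 was higher there by 0.62 (adjusted p = 0.00868), Cd27 by 0.56 (0.0182) and Irf4 by 0.85 (0.0492), calls that ended in 1, 5 and 10 of the 12 fits, with an adjusted p of up to 0.0528, 0.0853 and 0.212. The other Irf4 probe set differed by 0.10 in Tconv (adjusted p = 0.855) and was not called. Itch, a ubiquitin ligase that works with A20, was lower in NOD at its brightest probe set, with differences of -0.45 in Tconv and -0.54 in Treg. The Tconv call ended in 5 of the 12 fits (adjusted p up to 0.0948), and the Treg call held in all 12. The other Itch probe sets were not called in either population. Map3k7, which encodes the kinase TAK1, was lower in NOD at its brightest probe set, with differences of -1.72 in Tconv and -2.02 in Treg. Of its other 5 probe sets, 1 was also called lower in both, 1447801_x_at, whose mean of 5.18 lies under the 25th percentile, so that no size is given, and 4 were not called in either.

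For each called member the genes most alike over the 12 arrays were found among 15371 genes, by the root mean square difference after each gene was centred on its own mean. For Rel these were Armcx4 (0.16), Dlg3 (0.16) and Nfil3 (0.19), and for Relb Tbc1d14 (0.09), Kmt2a (0.10) and Casp6 (0.10). For Nfkbia they were Pex11a (0.06), Tube1 (0.07) and Dync2h1 (0.07), and for Nfkbie Gch1 (0.16), Acer2 (0.17) and Ccdc28a (0.17). For Tnfaip3 they were Cst3 (0.22), E2f2 (0.27) and Afdn (0.29). Birc3 was followed by Mtmr3, Bcl2l1 and Kdm2b (0.12 each), of which Bcl2l1, the gene of the survival protein Bcl-xL, is in the target list and rose by 0.87 in B6g7 and 0.68 in NOD. The other Bcl2l1 probe sets, with means between 5.20 and 5.47, were not called in either strain. The measure favours genes that vary little when the member varies little, so its sizes are not compared between members.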

How the data were processed

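RNA of sorted spleen CD4+ T cells was measured on 12 Affymetrix arrays in 4 groups of 3, per the labels. The authors normalized the arrays with RMA, as stated in the submitters' processing notes and the series text, and deposited linear intensity values per probe set; the software version is not given in the sources used here. Log2 was taken of these values with no pseudocount or filter. Of 45101 probe sets, 64 controls were left out; 34945 of the rest name 1 gene, 932 several and 9160 none. The table holds no detection calls, and precision is limited by the small number of arrays.

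One mean per group was fitted to all 12 arrays with limma 3.58.1 in R 4.3.3 (lmFit, eBayes with default settings), with Benjamini-Hochberg adjustment over 45037 probe sets. Between any pair of groups, each of 3 arrays, no exact permutation p can be under 0.1. No permutation p was computed for any comparison, including the averaged one, to which that limit does not apply. The fit was tested on simulated data. The series text calls the replicates independent. Every member probe set is reported; of the wider lists, the called genes are named in each comparison, at most the 4 of smallest p per list, besides Ikbkb and Ccr7, which were chosen after their values were seen. The likeness rule takes the 3 genes of smallest difference among those with a mean above the 25th percentile. Members and lists were chosen with earlier results of these data known. Alternatives were the arrays in the fit, a replicate block, the actin difference as a covariate, array weights, a trended robust eBayes, a pseudocount of 16, quantile normalization, a filter at the median, and leaving out arrays.

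Deviations from group means of arrays with the same replicate number correlated at 0.56, 0.31 and 0.40 between NOD Tconv and NOD Treg and at 0.67, 0.34 and 0.30 between the Treg groups, all over 0.1, so the numbers were taken to pair these arrays. Between the B6g7 groups (0.52, -0.08, 0.50) and the Tconv groups (0.44, -0.04, 0.20) they were not. Where they were, replicate 1 correlated negatively with replicates 2 and 3 of the other group. Replicate 3 of B6g7 Treg with 2 of NOD Treg gave 0.31, and 2 with 3 gave 0.21. In NOD, Tconv 3 with Treg 2 gave 0.22, and Tconv 2 with Treg 3 gave 0.03. Replicate 1 was thus set apart, while a pairing of 2 with 2 and 3 with 3 is not established.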

Additional observations from a re-analysis of the deposited data

How the results depend on the processing

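Of the 27 member calls, 14 held in all 12 fits that each left out 1 array, and 0 changed sign; of 64 calls in the wider lists 51 held. The NOD count of 9 calls was 2 to 9 over those fits, and the Tconv strain count of 1 was 0 to 2. In B6g7, array weights gave 10 calls in place of 6. In Tconv between strains, the replicate block, the actin covariate and array weights each gave 2 calls, adding Nfkbia probe set 1449731_s_at (adjusted p = 0.00714, 0.0292 and 0.0299). In Treg between strains, where the count was 0, the actin covariate gave 1 (Tnfaip3, 0.62, adjusted p = 0.0308) and log2(intensity + 16) gave 1 (Rela, -0.28, adjusted p = 0.0125). In place of the brightest Tnfaip3 probe set, the dim one turned the sign, with -0.093 in B6g7 and -0.16 averaged.

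Where the replicate numbers were taken to pair arrays, in NOD and between the Treg groups, the replicate block changed no member call. Only replicate 1 was set apart there, so the block is an alternative fit and not a known pairing of arrays. Elsewhere the numbers were not taken to pair arrays, and there the block also called Rel in B6g7 (adjusted p = 0.00293). So did 5 other settings, apart from the fits that each left out 1 array. Of those 12 fits, 2 called Rel in B6g7, the ones without NOD Treg replicate 1 or 2. The Tnfaip3 call in B6g7 ended with array weights (adjusted p = 0.054), a trended robust eBayes (0.0511) and the pseudocount of 16 (0.0738), and the averaged one with the pseudocount (0.0683). Without the 4 arrays numbered replicate 1, the averaged calls of Relb (0.0630) and of Nfkbia probe sets 1420088_at (0.108) and 1420089_at (0.0554) ended, as did Relb in B6g7 (0.150) and, in NOD, Nfkbia 1420088_at (0.244) and 1420089_at (0.0969) and Birc3 1425223_at (0.189), with fewer arrays in the fit. With only the arrays of the groups compared, the calls of Relb in B6g7 (0.0661) and, in NOD, of Rel (0.0758), Nfkbia 1420088_at (0.0614) and Birc3 1425223_at (0.0512) ended. Each of these settings left 6 calls in NOD in place of 9. The other causes were not tested. Of differences that were not called, 71 values changed sign in some setting. No detection limit is given in the table, so dim probe sets, such as 1450829_at, bound what can be said of low levels.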
